A study of Mus musculus with 11 samples.

Results

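Wide accessible domains that were not open everywhere were defined by the position and the width of called ATAC-seq peaks, where ATAC-seq marks chromatin that a transposase can reach. Peaks of 9 libraries were merged wherever they shared at least 1 bp. A domain was kept if it lay on chromosomes 1 to 19, held a single peak of 2500 bp or more in at least 1 library and had no peak in at least 1 of the 9 libraries. Of 71400 merged intervals, 69791 lay on these chromosomes and 719 (1.03%) met the rule. Another 1735 intervals were as wide but had a peak in all 9 libraries, and they are used below as the group to compare with. Width and absence of a peak chose the domains, so both are described here and not tested.

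The study sought the regulatory elements of Zbtb16, the gene of the transcription factor PLZF, through accessible chromatin in lymphoid cells that express PLZF and in related cells that do not. It compared CD4 single positive thymocytes (CD4SP, 2 libraries), natural killer T cells of the thymus (NKT, 2 libraries), common lymphoid progenitors of the bone marrow (CLP, 3 libraries) and innate lymphoid cell precursors of the bone marrow (ILCP, 2 libraries). NKT and ILCP are the PLZF-expressing types, and ILCP were sorted on the eGFP of a reporter line. All libraries came from mice labelled C57BL/6, with no transgene, deletion or treatment named in the labels. Mice of all the experiments were a few weeks old, and the age behind each library is not given. Tissue and cell type were compared through the same libraries, so a thymic type and a marrow type differ in both.

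In most cells an accessible site is short, about the length of DNA freed when a nucleosome or a few are displaced. Long accessible stretches are known from promoters rich in CpG dinucleotides, where unmethylated DNA stays open over a whole CpG island, and from clusters of enhancers at genes that define a cell type. Among genes with such long islands are many developmental regulators, which blood cells do not use and which Polycomb complexes hold silent.

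The sequences of 4 stretches inside these domains are given first. The first 3 are promoters of developmental genes from the RefSeq table for GRCm38.p6, each running from 250 bases before to 50 bases after a start site, with every CpG in capitals. They are shown because they lie in domains among the 12 widest. The fourth is the 200-base stretch of the Cd4 domain that holds the most Runx words (TGTGGT or TGCGGT on either strand, given in capitals), shown because Runx factors are the study's subject and Runx proteins are known to bind a silencer in the first intron of Cd4.
Meis2 promoter, chr2:116064570-116064869, minus strand: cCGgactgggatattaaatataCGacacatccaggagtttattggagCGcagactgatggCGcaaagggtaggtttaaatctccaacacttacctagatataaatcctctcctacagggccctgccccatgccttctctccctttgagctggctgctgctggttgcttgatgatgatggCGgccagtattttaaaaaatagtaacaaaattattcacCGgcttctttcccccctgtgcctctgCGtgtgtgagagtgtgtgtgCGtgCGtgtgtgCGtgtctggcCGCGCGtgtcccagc
Foxa1 promoter, chr12:57546062-57546361, minus strand: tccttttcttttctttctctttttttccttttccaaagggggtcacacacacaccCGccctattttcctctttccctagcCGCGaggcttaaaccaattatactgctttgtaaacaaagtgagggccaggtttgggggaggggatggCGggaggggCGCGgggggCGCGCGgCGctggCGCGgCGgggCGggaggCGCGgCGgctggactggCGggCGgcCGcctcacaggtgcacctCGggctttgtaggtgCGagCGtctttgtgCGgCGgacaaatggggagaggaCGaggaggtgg
Flrt2 promoter, chr12:95691976-95692275, plus strand: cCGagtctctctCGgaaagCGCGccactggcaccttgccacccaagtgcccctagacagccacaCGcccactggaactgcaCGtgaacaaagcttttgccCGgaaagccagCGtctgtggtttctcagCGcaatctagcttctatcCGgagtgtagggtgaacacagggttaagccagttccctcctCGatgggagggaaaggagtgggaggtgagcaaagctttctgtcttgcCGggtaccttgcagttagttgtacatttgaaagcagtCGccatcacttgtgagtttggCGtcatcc
Cd4 first intron, chr6:124885968-124886167, plus strand: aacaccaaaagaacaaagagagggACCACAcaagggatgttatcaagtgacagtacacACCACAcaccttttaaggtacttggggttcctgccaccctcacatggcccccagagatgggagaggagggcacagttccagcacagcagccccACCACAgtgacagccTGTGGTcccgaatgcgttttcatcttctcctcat

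The Foxa1 promoter held 26 CpG in its 300 bases, and 17.4% of 31365 RefSeq promoters on chromosomes 1 to 19 held as many or more. The Meis2 and Flrt2 promoters held 13 and 14 CpG, and 38.4% and 36.8% of promoters held as many. The median promoter held 7, with quartiles of 3 and 21. The 3 promoters thus lay above the median, and Foxa1 lay above the upper quartile. The Cd4 stretch held 4 of the 9 Runx words of its domain. A stretch of 200 bp with at least 4 such words was present in 9 of the 719 domains (1.25%) and in 14 of the 1735 wide intervals open in all 9 libraries (0.807%). A word is a match of letters and not a bound site.

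The widest peak of a domain ranged from 2500 to 7891 bp, with a median of 2907 bp and quartiles of 2661 and 3340 bp. In 311 domains it reached 3000 bp, in 78 it reached 4000 bp and in 9 it reached 6000 bp. The wide intervals open in all 9 libraries had a like median of 2977 bp but a longer tail, up to 23048 bp. Just inside the threshold were domains in the body of Abca13 (2500 bp) and at the start sites of Atp8b4 and Unc5c (2501 bp each). Just outside it were Ank1 and Tox3 (2497 bp each) and Kcnk10 (2496 bp), so nothing separated the last domains kept from the first left out.

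Most of the wide peaks came from 2 libraries. CLP replicates 2 and 3 had a wide peak in 507 and 445 of the domains. CLP replicate 1 had a wide peak in 3, the ILCP libraries in 5 and 3, the CD4SP libraries in 46 and 121, and the NKT libraries in 27 and 78. The same 2 CLP libraries had the most wide peaks anywhere: 4.83% and 4.57% of all their peaks were at least 2500 bp, against 0.331% in CLP replicate 1 and from 0.353% to 1.65% in the other 6. They also had the most peaks (41535 and 40136, against 19343 in CLP replicate 1) and the widest median peak (1035 and 1033 bp, against 874 bp). The part of these library differences in the width of the domains was not tested, and the study gives a common range of reads for its libraries but not the number behind each. Without CLP replicates 2 and 3, a setting chosen after the data were seen, the rule found 171 domains. In all 9 libraries together 596 domains (82.9%) were wide in a CLP library, and 358 of the 594 that were wide in replicate 2 or 3 were wide in both (60.3%), while 1 of the 596 was wide in all 3 CLP libraries. The 82.9% became 2.34% without CLP replicates 2 and 3, and 44.8% with the widest 1% of each library's own peaks in place of the fixed width, also chosen after the data were seen.

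**Figure D1:**
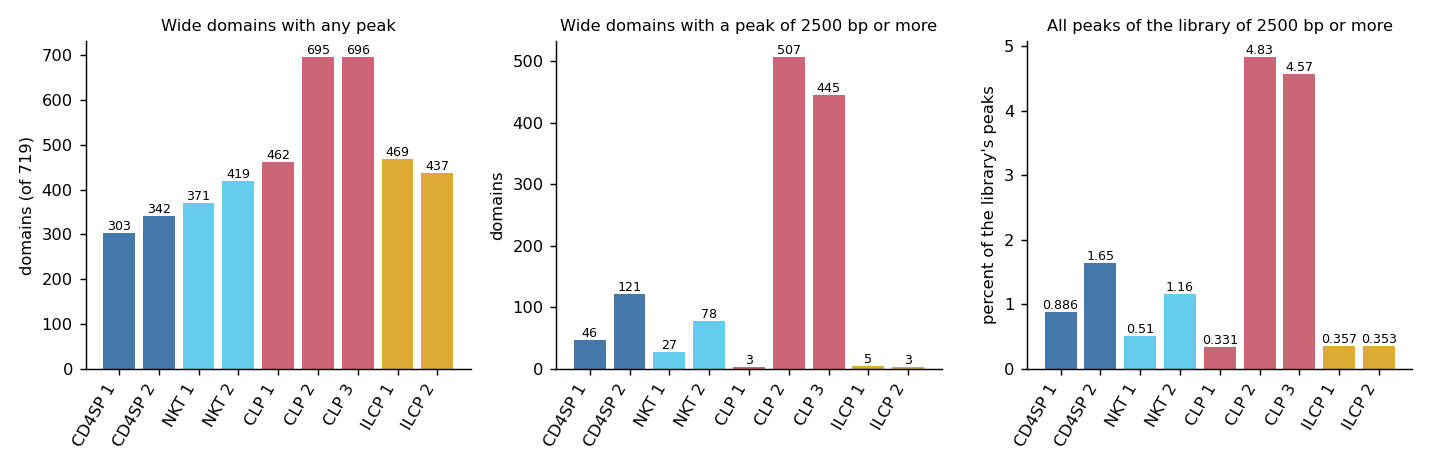
Bars give, for each of the 9 libraries, the number of the 719 domains with any peak (left), the number with a peak of 2500 bp or more (middle) and the percent of all the library's peaks that were that wide (right), coloured by cell type. CLP replicates 2 and 3 stand above the rest in all 3 panels, with 695 and 696 domains open and 507 and 445 wide, while CLP replicate 1 had 462 open and 3 wide.

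Presence of a peak was spread more evenly than width. A peak of any width was called in 303 and 342 domains in CD4SP, in 371 and 419 in NKT, in 462, 695 and 696 in CLP, and in 469 and 437 in ILCP. These were 42.1% and 47.6% of the domains in CD4SP (all intervals, 45.4% and 51.9%) and 51.6% and 58.3% in NKT (all intervals, 46.5% and 53.0%). In CLP they were 64.3%, 96.7% and 96.8% (all intervals, 25.8%, 57.1% and 55.0%), and in ILCP 65.2% and 60.8% (all intervals, 35.3% and 34.5%). The rule used peak presence, so nothing is read from these differences. In 166 domains only 1 of the 9 libraries lacked a peak, and in 53 of these it was CLP replicate 1, the library with the fewest peaks. In 44 it was ILCP replicate 2, in 27 ILCP replicate 1 and in 20 CD4SP replicate 1. At the other end, 32 domains had a peak in 2 libraries and 1 domain in 1 library. In 218 domains (30.3%; all intervals, 21.2%) each of the 4 cell types had a peak in at least 1 library, so absence there meant absence in 1 replicate or a few, not in a cell type. Peaks in CLP and ILCP but in no thymic library marked 190 domains (26.4%; all intervals, 6.13%), and peaks in CLP alone marked 60 (8.34%; all intervals, 20.9%). In all, 250 domains had no peak in any thymic library, and 249 of these had a peak in both CLP replicates 2 and 3 (34.6% of domains; all intervals, 19.4%). The share of all intervals without a thymic peak is not given here, so the 250 is a count only. Without CLP replicates 2 and 3 the 190 became 1 and the 250 became 2.

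The comparisons between cell types were read against the same calls over all 69791 intervals, and as the rule used peak presence nothing is read from the distance between the shares. Peaks in all 5 marrow libraries and in no thymic library were found in 120 domains (16.7%; all intervals, 2.04%). Peaks in all 4 thymic libraries and in no marrow library were found in 8 domains (1.11%; all intervals, 7.13%). For CLP replicates 2 and 3 without a thymic peak the count was 249 (34.6%; all intervals, 19.4%). Peaks in both NKT libraries and in no CD4SP library were called in 53 domains (7.37%; all intervals, 4.35%), and the opposite in 7 (0.974%; all intervals, 3.47%). All 3 CLP libraries and no ILCP library had a peak in 79 domains (10.99%; all intervals, 5.98%), and both ILCP libraries and no CLP library in 7 (0.974%; all intervals, 6.34%).

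By where they were wide, the domains fell into 558 that were wide in CLP or ILCP only, 122 that were wide in CD4SP or NKT only and 39 that were wide in both tissues. Of the 558, 552 were wide in CLP only, 5 in CLP and ILCP and 1 in ILCP only. They are called marrow-wide below, but the name stands mainly for CLP replicates 2 and 3. A marrow-wide domain had a peak in 25.6% to 46.4% of cases in the thymic libraries, and that peak was short: the median of the widest peak was 1075 bp in CD4SP and 994 bp in NKT, and it covered 40.7% and 34.2% of the domain. ILCP peaks were as short, with a median of 968 bp and 34.6% covered, but were present in more of these domains, 70.4% and 66.7%. CLP replicate 1 had a median of 1031 bp in them, against 2841 and 2766 bp in replicates 2 and 3. Thymus-wide domains had a peak in at least 96.7% of cases in every thymic library. In CLP replicates 2 and 3 82.0% of them had a peak, with medians of 1439 and 1336 bp, while in CLP replicate 1 23.8% did. In ILCP 43.4% and 40.2% of them had a peak, with medians of 864 and 800 bp. Of all intervals, 45.4% and 51.9% had a peak in the CD4SP libraries and 46.5% and 53.0% in the NKT libraries. In the CLP libraries 25.8%, 57.1% and 55.0% of all intervals had a peak, and in the ILCP libraries 35.3% and 34.5%. Where a domain wide in 1 tissue had a peak in the other, that peak was under 2500 bp by the definition of these classes, and its median was mostly near 1000 bp.

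**Figure D2:**
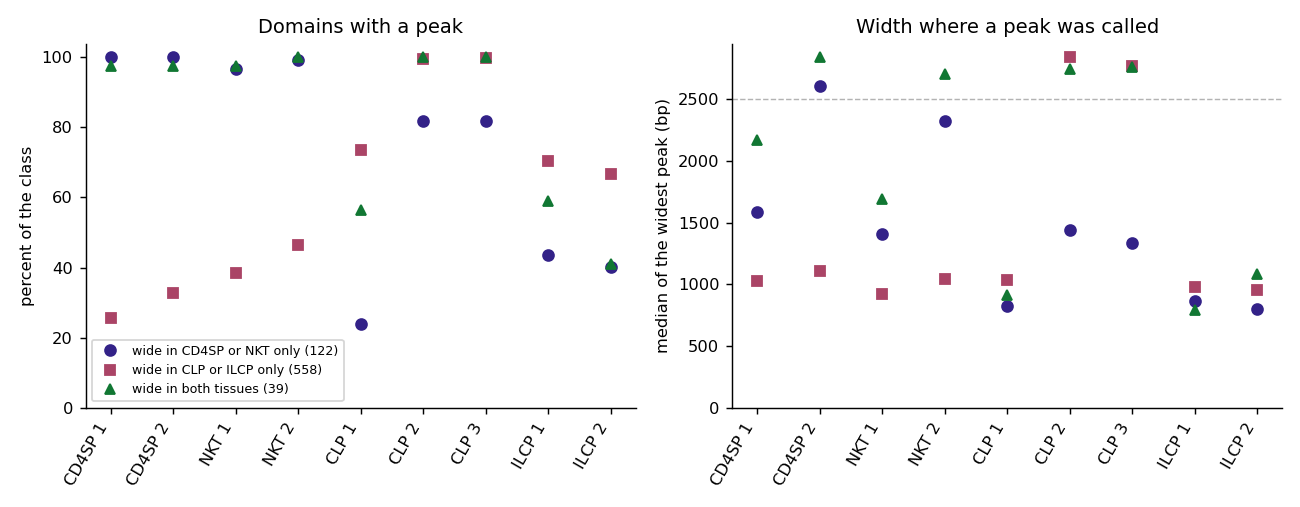
For each library, the left panel gives the percent of domains with a peak and the right panel the median width in bp of the widest peak where there was one, for the 122 domains wide in CD4SP or NKT only (circles), the 558 wide in CLP or ILCP only (squares) and the 39 wide in both tissues (triangles). The dashed line is the 2500 bp of the rule, and the medians of CLP replicate 1 and of both ILCP libraries lie near 1000 bp or below in every class.

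The domain with the widest single peak lay over a start site of Meis2, a homeobox transcription factor of the TALE class (chr2:116059972-116067864, 7893 bp, mm10). No peak was called there in either CD4SP or either NKT library, while CLP had peaks of 648, 7891 and 7145 bp and ILCP had 834 and 847 bp. Counted from the first covered start site, with upstream positions below 0, the short peaks of CLP replicate 1 and of ILCP all lay between -1781 and -892 bp and did not reach it. The wide CLP peaks ran from -2023 and -2025 bp to 5867 and 5119 bp.

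Other developmental regulators followed among the 12 widest. Over Foxa1, a forkhead factor known from endoderm (chr12, see its promoter above), thymic libraries had no peak, CLP had 1030, 5585 and 6001 bp, and ILCP had 623 and 814 bp. At Otx1, a homeobox gene known from the developing brain (chr11:21999464-22005088), only CLP replicates 2 and 3 had a peak, of 5581 and 5135 bp. Mkx, a homeobox gene of tendon (chr18:7000405-7007082), had CLP peaks of 6510 and 3333 bp in replicates 2 and 3 and an ILCP peak of 695 bp in replicate 2. None of these 4 homeobox and forkhead domains was open in a thymic library. A domain 1193 bp from the start site of Gdf7, a ligand of the bone morphogenetic protein family (chr12:8293238-8300761), had the same pattern, with 1100, 4241 and 7155 bp in CLP and 864 and 963 bp in ILCP.

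Genes of cell adhesion and guidance made up the next group. Pcdh17, a protocadherin (chr14:84440629-84448916), had 0 and 928 bp in CD4SP, 974 and 1157 bp in NKT, 2252, 6993 and 6817 bp in CLP, and 1772 and 1686 bp in ILCP. Flrt2, a cell surface protein of axon guidance (chr12:95690565-95697305), had no CD4SP peak, 1383 and 1012 bp in NKT, 1114, 6680 and 6738 bp in CLP, and 1276 and 1134 bp in ILCP. Efna5, an ephrin ligand (chr17:62879372-62884879), had 821 and 0 bp in CD4SP, 848 and 1057 bp in NKT, 806, 5508 and 5297 bp in CLP, and 473 and 746 bp in ILCP. At all 3 genes both NKT libraries had a peak, and the thymic peaks were at most 1383 bp wide. The remaining domains of the 12 widest lay far from any protein-coding start site, at 117858 bp from Tmem161b, 73322 bp from Dhx15 and 119427 bp from Rpl36a-ps1, and their widest peaks of 6882, 6506 and 5502 bp were likewise in CLP replicates 2 or 3.

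**Figure D3:**
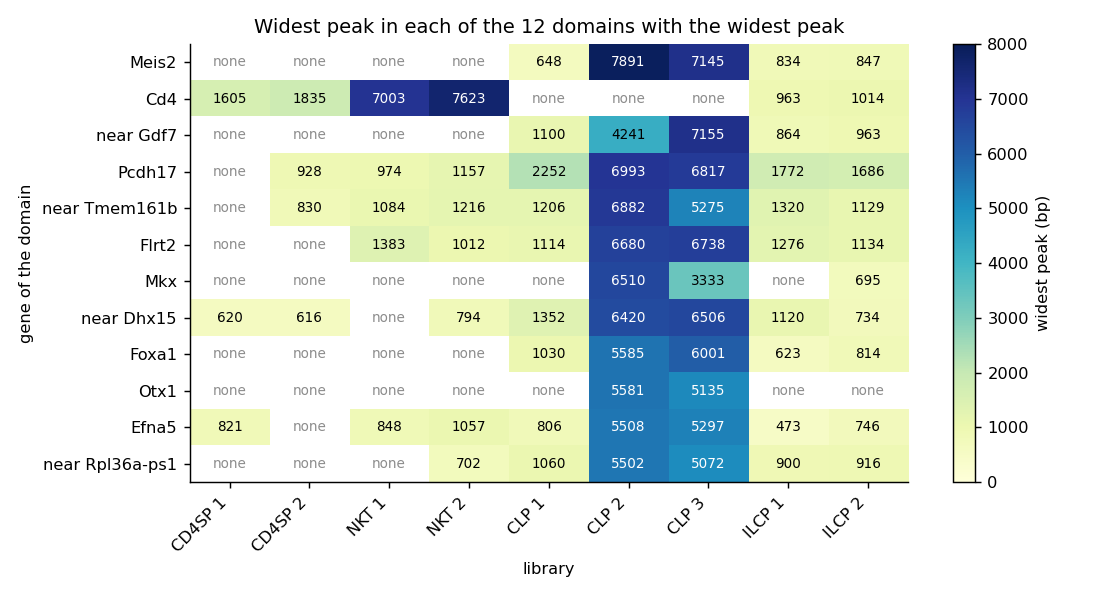
Each cell gives the widest peak in bp in a library (columns) for the 12 domains with the widest peak (rows), with "none" where no peak was called and "near" where the domain covers no start site of the gene. In 11 of the 12 rows CLP replicates 2 and 3 hold the widest peaks, and in the Cd4 row the NKT libraries do, with 7003 and 7623 bp.

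Cd4, which encodes the co-receptor of helper T cells, was the exception among the 12 (chr6:124881115-124888808, 7694 bp, over the start site and most of the first intron). NKT had single peaks of 7003 and 7623 bp. CD4SP had 2 separate peaks in each library instead, of 807 and 873 bp over the start site and of 1605 and 1835 bp in the first intron. ILCP had 1 peak in each library, of 963 and 1014 bp, in the intron only, and CLP had none. The 200-base stretch with 4 Runx words printed above lies 2054 to 2253 bp downstream of the start site. It was covered from end to end in all 6 libraries with a peak, the 2 ILCP libraries included, in which the start site was not covered. The intron peak of CD4SP ran from 1661 or 1761 to 3365 or 3495 bp downstream, whereas the NKT peaks went on to 6415 and 7106 bp. The widest Cd4 peak was thus wider in both NKT libraries than in both CD4SP libraries. Other mouse lines kept in the study carry transgenes driven by Cd4 sequences. The labels name no transgene for these libraries, and whether such a line had a part in the NKT peaks was not tested.

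**Figure D4:**
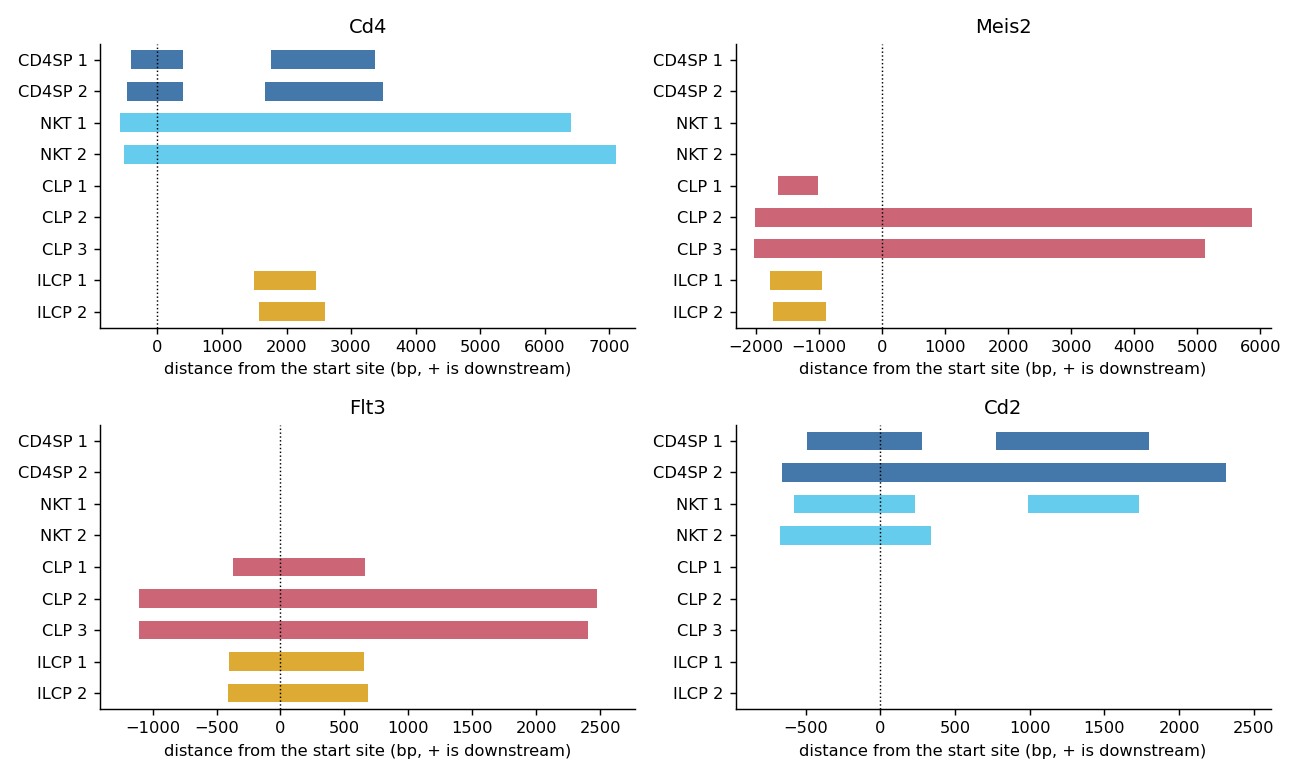
Bars give every called peak of the 9 libraries over the Cd4, Meis2, Flt3 and Cd2 domains by distance in bp from the start site (dotted line), with positive values downstream along the gene and colours by cell type. At Cd4 the NKT peaks run through the gap between the 2 CD4SP peaks, and the ILCP peaks lie within the first intron, between 1500 and 2592 bp.

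Domains with peaks in CD4SP and NKT only numbered 9 (1.25%; all intervals, 14.1%). Those with ILCP peaks in addition, and so open in both tissues, numbered 8 (1.11%; all intervals, 2.65%), and 1 was open in CD4SP alone (0.139%; all intervals, 7.13%). Cd2, an adhesion receptor of T cells, held 2 of the 9. The domain over its start site (chr3:101285626-101288608) had widest peaks of 1029 and 2974 bp in CD4SP and of 816 and 1007 bp in NKT, and that 7322 bp from a start site had 960 and 2666 bp in CD4SP and 0 and 1407 bp in NKT. Only CD4SP replicate 2 made either of them wide, and in CD4SP replicate 1 and NKT replicate 1 the first was split into 2 peaks. Introns of Elfn1 (chr5:139930657-139934112) and Manba, a lysosomal mannosidase (chr3:135512867-135516099), carried the widest domains of this set. Elfn1 had 1054 and 3288 bp in CD4SP and 955 and 2617 bp in NKT, and Manba had 3030 and 1883 bp in CD4SP and 1744 and 1809 bp in NKT.

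The set with thymic and ILCP peaks but no CLP peak held Cd4 and, next in width, an intron of Sumf1, an enzyme that activates sulfatases (chr6:108167185-108170971). There CD4SP had 1990 and 3691 bp, NKT had 3787 and 3673 bp, and ILCP had 1056 and 914 bp. Next was a domain 434014 bp from the nearest start site, of Atp11b, with 2887 and 2803 bp in CD4SP, 1151 and 1137 bp in NKT, and 651 and 748 bp in ILCP. In both of these domains the ILCP peaks were the shortest. CD4SP alone had a peak in a domain in the body of Satb1, a chromatin organiser of thymocytes, of 2502 and 1276 bp.

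Domains that were wide in ILCP were 6. Epha7, an ephrin receptor (chr4:28811970-28816348), was wide in both ILCP libraries, with 3797 and 3592 bp, and in CLP, with 2289, 4379 and 4276 bp, against 1058 and 1081 bp in NKT and none in CD4SP. Dach1, Jag1, Mpped2 and Cxxc4, named here after their values were seen, each had a domain that was wide in an ILCP library. Dach1 alone of these was wide in both ILCP libraries, with 3446 and 3497 bp.

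Among the gene lists, that of progenitor factors and receptors had the largest share of genes with a domain. Of its 17 genes, 9 (52.9%) were assigned at least 1 domain, 18 in all, beside 662 of 20698 protein-coding genes (3.20%). A wide peak in CLP was present in 17 of the 18 and a wide thymic peak in 2, beside 596 and 161 of all 719 domains. Width chose the domains and the lists were chosen with earlier results of these data known, so these shares are described and not tested. Mef2c, a factor of lymphoid and myeloid progenitors, had 6 domains, the most of any gene. The domain over its start site (chr13:83522228-83527300) had 1895 and 0 bp in CD4SP, 753 and 2647 bp in NKT, 1579, 4067 and 4940 bp in CLP, and 788 and 1744 bp in ILCP. The 5 others lay between 59582 and 436939 bp from the nearest annotated Mef2c start site, and 3 of them had no peak in any thymic library. Meis1, a homeobox factor of haematopoietic stem cells, had 3 domains, none with a thymic peak. That over its start site (chr11:19017772-19021721) had 2442, 3765 and 3949 bp in CLP and 985 and 1121 bp in ILCP. A further domain 139254 bp away (chr11:18874391-18879460) had 1313, 5070 and 4720 bp in CLP and 888 and 0 bp in ILCP.

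Other genes of the list are named after their values were seen. Flt3, the receptor tyrosine kinase by which CLP were sorted, had a domain over its start site (chr5:147398013-147401599) with no thymic peak, 1038, 3587 and 3517 bp in CLP and 1057 and 1093 bp in ILCP. Cd34, a surface glycoprotein of progenitors, had a domain over its start site with no thymic peak, 1115, 3181 and 3313 bp in CLP and 1055 and 1050 bp in ILCP. A second domain, 53623 bp from the Cd34 start site, had in addition NKT peaks of 997 and 1174 bp. Hhex, a homeobox factor, had peaks of 901 and 968 bp in NKT, and Cebpa, a factor of myeloid cells, had 0 and 751 bp in CD4SP and 984 and 1711 bp in NKT. At Flt3 and Cd34 every marrow library had a peak, while at Hhex CLP replicate 1 and ILCP replicate 1 had none. Tal1, Lyl1 and Mn1 completed the 9 genes, and all but Mn1 had a domain over a start site.

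The remaining lists held fewer. T-lineage factors had a domain at 5 of 16 genes. Gata3, a factor of T cells and innate lymphoid cells (chr2:9887381-9891304), had 1404 and 1382 bp in CD4SP, 764 and 1035 bp in NKT, 856, 3720 and 1690 bp in CLP, and 585 and 0 bp in ILCP, so that CLP replicate 2 alone made it wide. Runx1 (chr16:92696388-92699263) had 943 and 2876 bp in CD4SP, 703 and 1307 bp in NKT, 0, 2587 and 2032 bp in CLP, and no peak in ILCP. Foxp1 had a peak in NKT replicate 2 (689 bp) and in CLP replicates 2 and 3 (3181 and 1556 bp) only, and Ikzf1 had 2 domains. Genes of the T cell receptor complex and its signalling had a domain at 2 of 18 genes, Cd4 and Cd2, and all 3 domains were wide in a thymic library and in no CLP library.

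The innate and innate-like programme had a domain at 4 of 20 genes, which were Gata3, Maf, Tox2 and, by a domain 91202 bp from its nearest start site, Id2. Maf, a leucine zipper factor, had 1992 and 2521 bp in CD4SP, 2297 and 2307 bp in NKT, 0, 2831 and 3092 bp in CLP, and 706 and 1159 bp in ILCP. Tox2, an HMG-box factor, was widest in NKT replicate 2 (2586 bp) and had 695 and 0 bp in ILCP. Lymphocyte trafficking genes had a domain at 0 of 11 and early response genes at 1 of 21, both near the 3.20% of all genes. A wide interval that was open in all 9 libraries was assigned to 4 of the 11 and 18 of the 21, to 5 of the 16 T-lineage factors and to 1593 of all 20698 genes. The 1 early response domain lay 6600 bp from Cd69, an activation marker, and was the only domain of the 719 with a peak in a single library, of 3162 bp in CLP replicate 1.

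Gene families were counted by symbol patterns chosen after the values were seen, which do not take in every gene of a family, and so carry no test. Over all genes 3.20% had a domain, and of all 719 domains 250 had no thymic peak and 552 were wide in CLP only. Of 96 homeobox genes outside the Hox clusters that the patterns matched, a partial list that leaves out others with domains such as Alx1, Prox1 and Pknox2, 15 (15.6%) had a domain, and 19 of their 22 domains had no thymic peak. Pax6, an eye and brain regulator, had 2 of them, each with no thymic peak and with CLP replicates 2 and 3 between 3432 and 3869 bp. The forkhead family had a domain at 8 of 41 genes (19.5%), all over start sites and wide in CLP only, among them Foxa2 and Foxc1. Of 39 Hox genes 0 had a domain, which is near the share of all genes. Ephrins and their receptors had a domain at 5 of 21 genes and semaphorins and plexins at 6 of 27. The cadherin superfamily had a domain at 7 of 93 genes, the Tbx family at 1 of 12, and the AP-1 and Maf genes at 1 of 16. Sox genes had a domain at 4 of 18, Zic genes at 2 of 4, Gata genes at 1 of 5 and Cebp genes at 2 of 6. Krüppel-like factors had a domain at 6 of 16, none of which lacked thymic peaks throughout.

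A start site of a protein-coding gene lay in 408 of the 719 domains (56.7%, 95% Wilson interval 53.1 to 60.3%). The share was 81.2% (79.3 to 83.0%) among wide intervals open in all 9 libraries and 17.97% (17.7 to 18.3%) among all intervals. Start sites were covered by 57.2% of the marrow-wide domains, 47.5% of the thymus-wide and 79.5% of those wide in both tissues. The intervals treat domains as independent, and neighbouring domains are not. The middle of a domain lay in an intron in 347 cases, in an exon in 150 and between genes in 222.

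CpG content differed between domains at start sites and domains elsewhere. The ratio of observed to expected CpG over the whole domain had a median of 0.430, beside 0.585 for wide intervals open in all 9 libraries and 0.235 for all intervals. It was 0.599 in domains over a start site, beside 0.641 in all intervals over a start site, and 0.222 in the other domains, beside 0.210 in the other intervals. A ratio over 0.6 was found in 218 domains (30.3%), 203 of them over a start site. GC content of the central 300 bp had a median of 53.7%, beside 58.3% and 49.0%. Meis2 had a ratio of 0.59 and Otx1 0.62, whereas Cd4 had 0.25 and Cd2 0.28. Epha7 had 0.80.

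**Figure D5:**
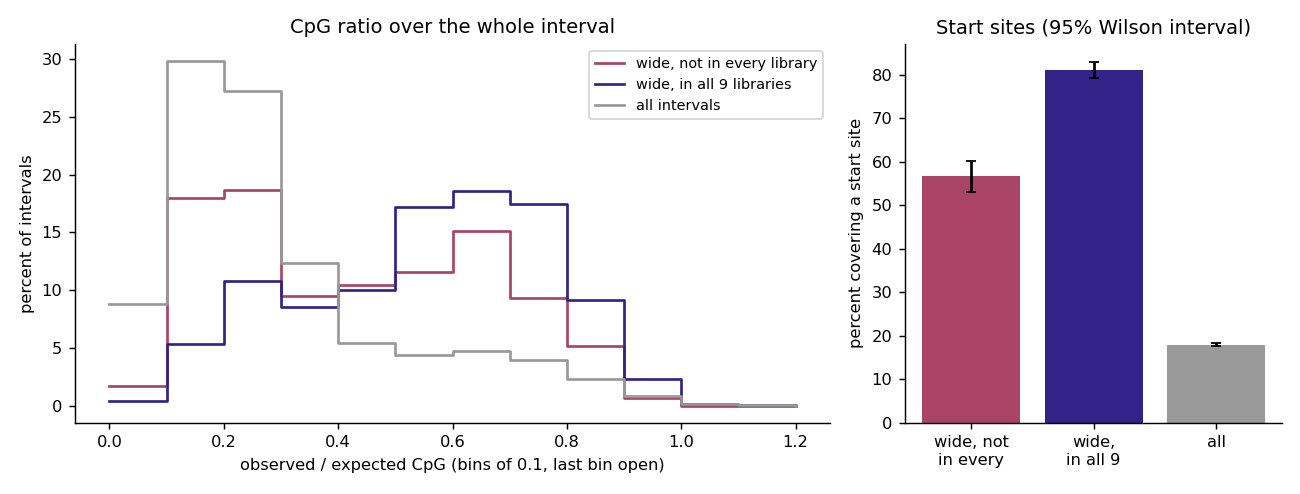
The left panel gives the percent of intervals by ratio of observed to expected CpG in bins of 0.1 for the 719 domains, the 1735 wide intervals open in all 9 libraries and all 69791 intervals. The right panel gives the percent that cover a start site, with 95% Wilson intervals as bars, at 56.7%, 81.2% and 17.97%.

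Words of several factor families were searched on both strands of the central 300 bp. A Runx word (TGTGGT or TGCGGT) was present in 24.1% of domains, 21.4% of wide intervals open in all 9 libraries and 36.7% of all intervals. An Ets word (CCGGAAGT or AGGAAGT) was present in 9.18%, 9.34% and 21.04%. A Gata word (AGATAA) was present in 11.5%, 6.40% and 14.4%. A Tcf/Lef word (CTTTGAA or CTTTGAT) was present in 8.62%, 6.57% and 14.2%. An E-box (CAGCTG or CAGGTG) was present in 31.99%, 30.4% and 37.3%, and the CTCF core word (CCCTCT) in 30.3%, 25.7% and 28.1%. Domains over a start site and all intervals over a start site held a Runx word in 21.1% and 22.4%, an Ets word in 5.88% and 12.8%, a Gata word in 6.86% and 4.78% and a Tcf/Lef word in 7.11% and 4.90%. Away from start sites these pairs were 27.97% and 39.8% for Runx, 13.5% and 22.9% for Ets, 17.7% and 16.6% for Gata, and 10.6% and 16.2% for Tcf/Lef. Only the Ets word had a share in domains at least 1.5 times below that in all intervals in both groups, the Runx shares over start sites lay close together, and for Gata in both groups and for Tcf/Lef over start sites the order turned. None of these differences was tested. The centre of a wide domain need not be the site of most cuts.

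Domains were found on every chromosome from 1 to 19, from 0.791% of intervals on chromosome 9 to 1.38% on chromosome 3. Within 50 kb of another such domain lay 72 of them (10.01%), beside 18.2% of the wide intervals open in all 9 libraries. Each share counts neighbours of its own kind, and the groups hold 719 and 1735 intervals, so the 2 shares do not compare how clustered they are. At 617 genes there was 1 domain, at 37 there were 2 and at 8 there were 3 or more. Gramd1b, a sterol transfer protein, had 3 within its body. That over its start site (chr9:40342753-40347094) had 850 and 1082 bp in CD4SP, 898 and 758 bp in NKT, 0, 4285 and 4252 bp in CLP, and no ILCP peak. Khdrbs3, an RNA-binding protein, had 4 domains that did not share a pattern. The domain over its start site had no thymic peak and 0, 3055 and 2644 bp in CLP, whereas a domain in its body had no CLP peak and 1308 and 2742 bp in NKT. Repeats covered a median of 12.9% of a domain, beside 14.2% of all intervals, and 1 domain, near Tcp10c, consisted mostly of 50-base words found at more than 1 place in the genome.

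The 2 CLP libraries with most wide peaks also gave the highest scores to their domains. A score of 3100 or more, the commonest score value in the files, was reached in 97 and 91 domains in CLP replicates 2 and 3 and in at most 4 in any other library. Of all their peaks 3.32% and 3.13% reached it, against 0.276% to 1.89% in the other libraries. Many peaks share this value, some scores lie above it, and the scale is not stated in the sources used here. The Meis2 peaks of these libraries and the Cd4 peaks of both NKT libraries had that score, whereas the Meis2 peak of CLP replicate 1 had 126.

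Wide domains were also chosen on the replicate 1 libraries alone and looked up in the libraries not used for the choice. Domains with a wide peak in CD4SP or NKT replicate 1 and no peak in CLP or ILCP replicate 1 numbered 17. A peak was called in all 17 in CD4SP replicate 2, in 16 in NKT replicate 2, in 12 each in CLP replicates 2 and 3, and in 0 in ILCP replicate 2. Of all intervals, 51.9%, 53.01%, 57.1%, 55.03% and 34.5% were open in these libraries, in the same order. The mean share with a peak was 97.1 ± 4.16% (SD, n = 2) in thymic libraries and 47.1 ± 40.8% (SD, n = 3) in marrow libraries, a difference of 50 percentage points (exact permutation test over libraries, two-sided, p = 0.2). The 6 domains wide in CLP or ILCP replicate 1 without a peak in CD4SP or NKT replicate 1 had a peak in 2 and 1 cases in the thymic libraries and in 4, 5 and 5 in the marrow libraries. The mean share was 25 ± 11.8% (SD, n = 2) against 77.8 ± 9.62% (SD, n = 3), and the same exact permutation test gave p = 0.2. With 2 against 3 libraries 0.2 is the smallest p possible, so no difference could pass 0.05. On the thymic domains the marrow libraries differed among themselves, with 70.6% open in CLP replicates 2 and 3 and 0% in ILCP replicate 2. With the choice made on replicate 2 instead, 7 thymic domains were found, of which 0% had a peak in CLP replicate 1, 14.3% in CLP replicate 3 and 0% in ILCP replicate 1, and the difference was 88.1 points.

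Identity of the cells was checked at start sites of marker genes. Of 8 T cell markers such as Cd3e, 7 or 8 had a peak at a start site in the thymic libraries, 2 to 4 in CLP and 1 in ILCP. The 1 in ILCP was Lck, which had a peak in all 9 libraries, and Bcl11b had a peak in CD4SP replicate 2 and NKT replicate 1 only. Of the 4 CLP markers, Flt3 had a peak in the CLP and ILCP libraries and in no thymic library, and Rag1 in the CLP libraries only. Il7r had a peak in all libraries but ILCP replicate 2, and Dntt in CLP replicates 2 and 3 only. Cd8b1 had a peak in both CD4SP libraries and in NKT replicate 2, and Cd8a in CD4SP replicate 2 and CLP replicate 2. Of the 4 NKT markers, Klrb1c had no peak in any library, Tbx21 had a peak in NKT replicate 2 only, Il2rb in all 4 thymic libraries, and Zbtb16 in both NKT and both ILCP libraries and in CLP replicate 2. Of the 5 ILCP markers, 4 and 5 had a peak in ILCP, 5 in each NKT library, 4 in each CD4SP library, and 2, 5 and 4 in CLP. Of 6 B lineage markers 1 or 2 had a peak in each library, Ebf1 being open in all 9, and Cd79a, Pax5 and Vpreb1 had none. Zbtb7b, a CD4SP marker, had a peak in all libraries but CLP replicate 1, and Cd4 in the 4 thymic libraries only. Of the 2 erythroid markers, Gata1 had a peak in both CD4SP libraries and NKT replicate 2, and Klf1 had none. Of 5 myeloid markers 0 or 1 had a peak in each library, and the part of other cells in the domains was not tested.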

How the data were processed

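The libraries were ATAC-seq of sorted C57BL/6 thymocytes and bone marrow cells. CLP were sorted as lineage-negative cells with high Flt3, NKT with a CD1d tetramer and ILCP by reporter fluorescence. The authors aligned reads of 50 bp to mm10 with bowtie, allowing 2 mismatches, and called peaks with MACS, whose version and settings are not given in the sources used here. The labels also list Picard and HOMER. Each deposited file gives the position and a score for every peak of 1 library, called per library. The scale of the deposited score is not stated, and its lowest value is 120. It was used to order peaks and, in 1 paragraph, to count those at 3100 or more, and with the scale unknown that count is a description only. The study's methods give a common range of reads for the libraries but not the count of each, so no depth correction was made, and peak widths can depend on depth. Libraries labelled as Runx1 ChIP and input of NKT were not analysed here. Replicates are separate samples in the labels, and the study's methods call them biological replicates. Neither the labels nor the methods say whether each came from separate mice.

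Peaks were merged in Python 3.11.15 (pandas 2.3.3, numpy 2.4.6, scipy 1.17.1) and the merging was tested on simulated data. Widths are column differences in bp, and coordinates are printed from base 1. Domains were assigned to the protein-coding gene whose start site they cover, else to the gene body, else to the nearest start site (GENCODE M21). Sequence came from GRCm38, the same build as mm10, and promoters from the RefSeq table of GRCm38.p6, which held no window inside the Otx1 and Cd4 domains. Regions were named by rule: the 12 with the widest peak, the 3 widest of each set of cell types with at least 3 domains, the 3 on either side of the threshold, the 5 genes with most domains and up to 4 domains of each gene list. The domains, lists and rules were chosen with earlier results of these data known. The alternatives were other widths, score filters, merging gaps, coverage minimums and libraries left out. Shares have 95% Wilson intervals where given. The only test was an exact permutation test over libraries not used to choose domains. Results on some genes are not reported here.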

Additional observations from a re-analysis of the deposited data

Results flagged for a closer look

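Signal outside the 19 autosomes was left out of the comparisons and is given here as values. On chromosome X 19 intervals met the same rule of width and absence, or 1.19% of its 1600 intervals, beside 1.03% on chromosomes 1 to 19. All 19 were wide in CLP only, and 16 of them covered a start site. The widest lay over Mamld1 (4913 bp), followed by Sox3, a developmental HMG-box factor (3638 bp), and Shroom4 (3537 bp). On chromosome Y 1 interval met the rule. Peaks on the mitochondrial chromosome, which has no nucleosomes, numbered 2 in each of the 9 libraries, and the widest measured 6937 bp, in CLP replicate 2.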

How the results depend on the processing

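Widths are those of called peaks, so a broad shallow signal and a row of close sites cannot be told apart, and 2 of the 9 libraries supplied most wide peaks. With a width of 2000 bp the rule found 2003 domains, of which 413 had peaks in CLP and ILCP only, 619 had no thymic peak, 74.8% were wide in CLP and 47.5% covered a start site. At 3000 bp these values were 311, 92, 113, 89.4% and 63.3%. Keeping the 19343 highest-scoring peaks of each library gave 920 domains, 413 of them without a thymic peak, and keeping the higher-scoring 50% gave 1103 domains with 421 such. Requiring a wide peak in every replicate of a cell type left 42 domains. Chosen after seeing the data, leaving out CLP replicates 2 and 3 gave 171 domains, of which 1 had peaks in CLP and ILCP only, 2 had no thymic peak and 2.34% were wide in CLP. The widest 1% of each library's own peaks, also chosen after seeing the data, gave 268 domains, 44 and 55 of these kinds and 44.8% wide in CLP. Leaving out 1 library at a time gave 588 to 706 domains, 149 to 230 with CLP and ILCP peaks only, 197 to 296 without a thymic peak, 76.9% to 88.3% wide in CLP and 55.3% to 57.7% over a start site. Over whole domains the median GC content was 51.1%. In the libraries not used for choosing, the difference kept its sign, from 26.5 to 61.8 points for thymic domains with 1 library left out and from -61.1 to -44.4 for marrow domains. Choosing on replicate 2 gave 88.1 and -77.7 points, and no setting could reach p under 0.05. Leaving out ILCP replicate 2 gave the 26.5 points. The causes were not tested, and merging across gaps and a coverage minimum moved no value past its limit. No paired analysis was possible because the counts come from no test, the number marks no shared animal in the labels, and in the test 1 replicate number stands for each thymic type.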
